A study of Mus musculus with 10 samples.

Results

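The genes described here encode zinc finger proteins that the mouse nomenclature names Zfp followed by a number. Transcripts were measured on 1-colour arrays in J1, 1 line of mouse embryonic stem cells, 96 hours (day 4) after cells received an siRNA, a short RNA that triggers degradation of its target transcript. The siRNA was non-targeting (NT) or directed at Ino80, Ino80b, Ino80c or Ino80e, which encode the ATPase and other subunits of the INO80 chromatin remodelling complex. All 5 groups were the same line and differed in the siRNA and in the slide that held their arrays. NT was alone on slide 1, Ino80 and Ino80b were on slide 2, and Ino80c and Ino80e were on slide 3. Cells were kept in ESGRO medium and moved to M15 medium for transfection, and each group held 2 biological replicates with 1 array each. The members were chosen by signal: probes named Zfp and a number, other than Zfp42, that the scanner software called well above background on all 10 arrays. Of 461 such probes for 239 gene names, 369 probes for 220 gene names met the rule, out of 41174 non-control probes on the array.

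Of the 92 Zfp probes left out, 36 were above background on 0 arrays, 44 on 1 to 8 arrays and 12 on 9 arrays. The 12 probes just outside had mean processed signals of 15.2 to 26.1 intensity units, and the lowest member had 19.8. Zfp109, Zfp142, Zfp169 and Zfp180 were among the genes with a probe just outside, and 19 gene names had no member probe. Names are those of the array design; among the 272 member probes that RefSeq accessions could name, 41 have another symbol now, such as Zfp278 (Patz1), Zfp406 (Zfat), Zfp385 (Zfp385a), Zfp206 (Zscan10) and Zfp336 (Gzf1). A few of these no longer count as Zfp genes, among them Zfp313 (Rnf114) and Zfp289 (Arfgap2).

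Most Zfp genes encode C2H2 zinc finger proteins, in which a tandem row of fingers binds DNA and each finger holds a zinc ion between a pair of cysteines and a pair of histidines. Many carry a KRAB domain that recruits Trim28 (KAP1) and, through it, the histone methyltransferase Setdb1 and other silencing factors to retroelements and imprinted regions. In embryonic stem cells this system is known for keeping endogenous retroviruses silent and for protecting imprinted DNA methylation, a role in which Zfp57 is the best studied member. Which members carry a KRAB domain was not analysed here.

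Successive fingers are joined by a conserved linker with the amino acids TGE, then K or R, then P, and its coding sequence can be read in some of the probes. A 14-base coding motif of the K form, with any base at the last position of each codon, was searched on both strands of each probe. It was present in 11 member probes (10 genes), 2.98% of members, against 35 probes (0.085%) of the whole array, and in 0 probes on the other strand. Capitals mark the linker in 4 of these probes, shown because they display the repeated unit that the proteins share:
Zfp2 (chr11:50856741-50856800, mm7, minus strand): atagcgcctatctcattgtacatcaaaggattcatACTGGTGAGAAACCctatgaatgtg
Zfp74 (chr7:26877456-26877515, mm7, minus strand): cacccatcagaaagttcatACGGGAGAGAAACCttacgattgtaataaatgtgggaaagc
Zfp51 (chr17:19644483-19644542, mm7, plus strand): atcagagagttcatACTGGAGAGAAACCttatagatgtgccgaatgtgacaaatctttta
Zfp97 (chr17:15490861-15490920, mm7, plus strand): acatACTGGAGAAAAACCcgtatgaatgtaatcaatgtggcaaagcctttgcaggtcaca

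Of the 11 linker probes 0 were called by limma in any knockdown against NT or in the mean of the 4, where 17.2% of all probes tested were called. At an unadjusted p under 0.05 there were 1 with Ino80, 6 with Ino80b, 1 with Ino80c, 2 with Ino80e and 3 in the mean. Their log2 differences there ran from -0.62 for Zfp74 to 0.28 for the Zfp51 probe shown. Runs of 18 or more identical bases with a probe of another gene were found in 14 member probes (3.79%). The longest run, 29 bases, was in the Zfp97 probe, and 1 of the 14 was called, a second Zfp51 probe at 0.43 (adjusted p = 0.0452). Signal from close relatives is therefore uncertain for these 14 probes.

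On each array 66.4% to 79.0% of non-control probes exceeded background clearly, 0 spots were saturated, and the number of arrays limits the precision of every value. On the array the targeted genes were lower in their own knockdown, with limma adjusted p-values of 0.00476, 0.0311 and 0.108 for the Ino80 probes, 0.0285 for Ino80b and 0.0134 and 0.0212 for the Ino80c probes. For Ino80e the log2 difference was -1.21 with adjusted p = 0.0834, and both knockdown arrays lay below both NT arrays. The Ino80b probe was also lower on the Ino80c and Ino80e arrays (-2.89 to -2.36) than with NT (-1.39 and -1.15). So was the Ino80 probe with adjusted p = 0.0311 (-2.34 to -1.51, against -1.20 and -1.29 with NT). The remaining Ino80 probes overlapped NT there. Of 12 embryonic stem cell markers, 11 were tested and all 11 were well above background on all arrays. Both NT arrays were alone on slide 1, the Ino80 and Ino80b arrays shared slide 2 and the Ino80c and Ino80e arrays shared slide 3. The effect of a slide and of any knockdown against NT cannot be told apart; Ino80 against Ino80b and Ino80c against Ino80e are comparisons within a slide.

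In the single knockdowns the Zfp probes were called about as often as the array as a whole, with rises and falls among them. In the mean of the 4, 9.21% were called lower, against 6.72% of all probes tested, and 9.49% higher, against 10.5%. Levels are given as log2 processed signal relative to the 75th percentile of the array, so 0 is that percentile, and a probe is called at a Benjamini-Hochberg adjusted p under 0.05 over all 29587 probes tested. With Ino80 siRNA 41 of the 369 member probes were called (11.1%), 21 higher and 20 lower, while 11.5% of all probes tested were called, 6.44% higher and 5.11% lower. With Ino80b siRNA the count was 17 (4.61%, against 5.69% of all probes), 8 higher and 9 lower, with 2.93% and 2.76% of all probes in these directions. With Ino80c siRNA it was 13 (3.52%, against 4.75%), 7 higher and 6 lower, with 3.32% and 1.43% of all probes. All 3 shares lie near those of the array, so the counts set the Zfp probes apart in none of these knockdowns. With Ino80e siRNA 0 were called by limma (against 0.0% of all probes), 119 members had an unadjusted p under 0.05, and normexp background correction gave 69 calls (18.7% of members) where 22.6% of all probes were called.

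The mean of the 4 knockdowns against NT was used for what they had in common, since the 4 comparisons share the NT arrays. It called 69 members (18.7%, against 17.2% of all probes tested), 35 higher and 34 lower, which belong to 57 gene names. This even split depended on the scaling: quantile normalization gave 25 higher and 50 lower, and the authors' deposited table gave 23 and 80. In these settings 17.0% and 21.7% of all probes were called. In the single knockdowns quantile normalization gave 10 higher and 17 lower for Ino80b (7.12% of all probes called). For Ino80c it gave 5 and 17 (5.06%). The authors' deposited table gave 12 and 41 for Ino80b and 5 and 51 for Ino80c (12.6% of all probes called in each). Whether falls also outnumbered rises over all probes in these settings was not computed. With the 75th percentile scaling 10.5% of all probes tested were higher and 6.72% lower, and of the members 9.49% and 9.21%. The median log2 difference of the members was 0.047 with Ino80 siRNA, 0.055 with Ino80b, 0.090 with Ino80c, 0.031 with Ino80e and 0.052 in the mean of the 4. The corresponding medians of all probes tested were 0.114, 0.072, 0.197, 0.113 and 0.131. On single arrays, the median level of the members minus that of all probes tested varied between replicates of a group with an SD of 0.064. That is a spread of levels on single arrays, not of the medians of differences. Over the other settings the members' median log2 difference minus that of all probes tested ran from -0.187 to -0.035 with Ino80c. It ran from -0.12 to -0.054 with Ino80e and from -0.131 to -0.028 in the mean.

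The spread of the members in the mean of the 4 knockdowns (SD 0.428) was about that of all probes well above background on every array (SD 0.448). On 60 member probes (16.3%) all 8 knockdown arrays lay above both NT arrays, against 16.3% of all probes tested and 18.2% of those above background on all 10 arrays. On 63 (17.1%) all 8 lay below both NT arrays, against 10.2% of all probes tested and 11.4% of those above background on all 10 arrays. On the other 246 probes the groups overlapped. Other zinc finger families named alike gave 7 calls of 37 Zbtb probes (18.9%) and 11 of 25 Klf probes (44.0%) in the mean of the 4 knockdowns.

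**Figure D1:**
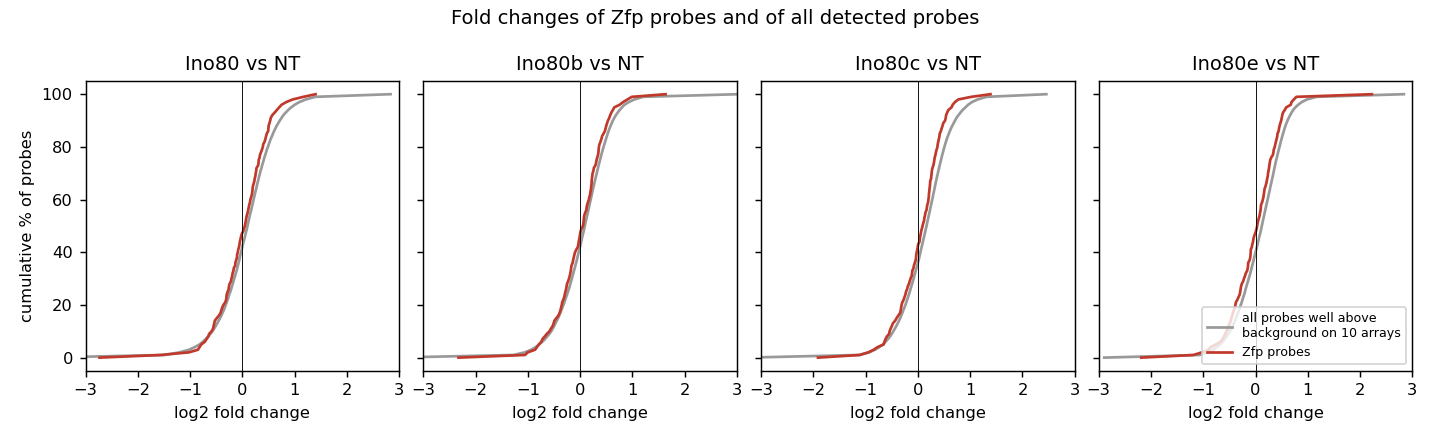
Cumulative percentage of probes (y) against log2 fold change over NT (x) for the 369 Zfp probes (red) and for all probes well above background on 10 arrays (grey), in each knockdown. The curves lie close together, the Zfp curve slightly to the left over most of its length. From left to right the Zfp median is at 0.047, 0.055, 0.090 and 0.031, and the grey median at 0.098, 0.090, 0.167 and 0.120.

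The share of all probes called depended on single arrays, and so did the counts of called members. Leaving out 1 array leaves 1 array in a group, so the counts are not given for these fits. For Ino80, Ino80b, Ino80c and the mean of the 4 knockdowns, both the share and the member count fell without NT replicate 2. Without NT replicate 1 both rose. When an array of Ino80b, Ino80c or Ino80e was left out, both fell in all of these comparisons. For Ino80 both also fell without either Ino80 replicate. Without NT replicate 2 only 5 of the 61 named calls held, all in Ino80 against NT: Zfp57, Zfp423, Zfp459, Zfp202 and Zfp608.

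Among the imprint and retroelement genes, Zfp57 fell the most. Zfp57 is the KRAB zinc finger protein that binds methylated imprinting control regions and keeps their methylation. Its probe (chr17:35161850-35161909, mm7, plus strand) had levels of 1.59 and 1.97 on the NT arrays, -0.58 and -1.32 with Ino80 siRNA, -0.29 and -0.80 with Ino80b, 0.01 and -0.27 with Ino80c, and 0.56 and 0.31 with Ino80e. All 8 knockdown arrays lay below both NT arrays, lowest with Ino80 siRNA and highest with Ino80e. The fall was 6.64-fold with Ino80 siRNA (log2 -2.73 ± 0.29 SE, n = 2, limma adjusted p = 0.00459). It was 5.01-fold with Ino80b (adjusted p = 0.0155) and 3.76-fold with Ino80c (adjusted p = 0.0288), and the value for Ino80e, 2.54-fold lower, did not pass (adjusted p = 0.0834). Zfp57 has 1 member probe, so no second probe bears on it.

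Within slides the Zfp57 differences were smaller than those against NT. Ino80 against Ino80b gave -0.41 (limma adjusted p = 0.724) and Ino80c against Ino80e gave -0.56 (adjusted p = 0.587). Without NT replicate 2 the log2 difference with Ino80 siRNA was -2.54 (adjusted p = 0.029), and in the mean of the 4 knockdowns it was -1.89 (adjusted p = 0.0798).

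**Figure D2:**
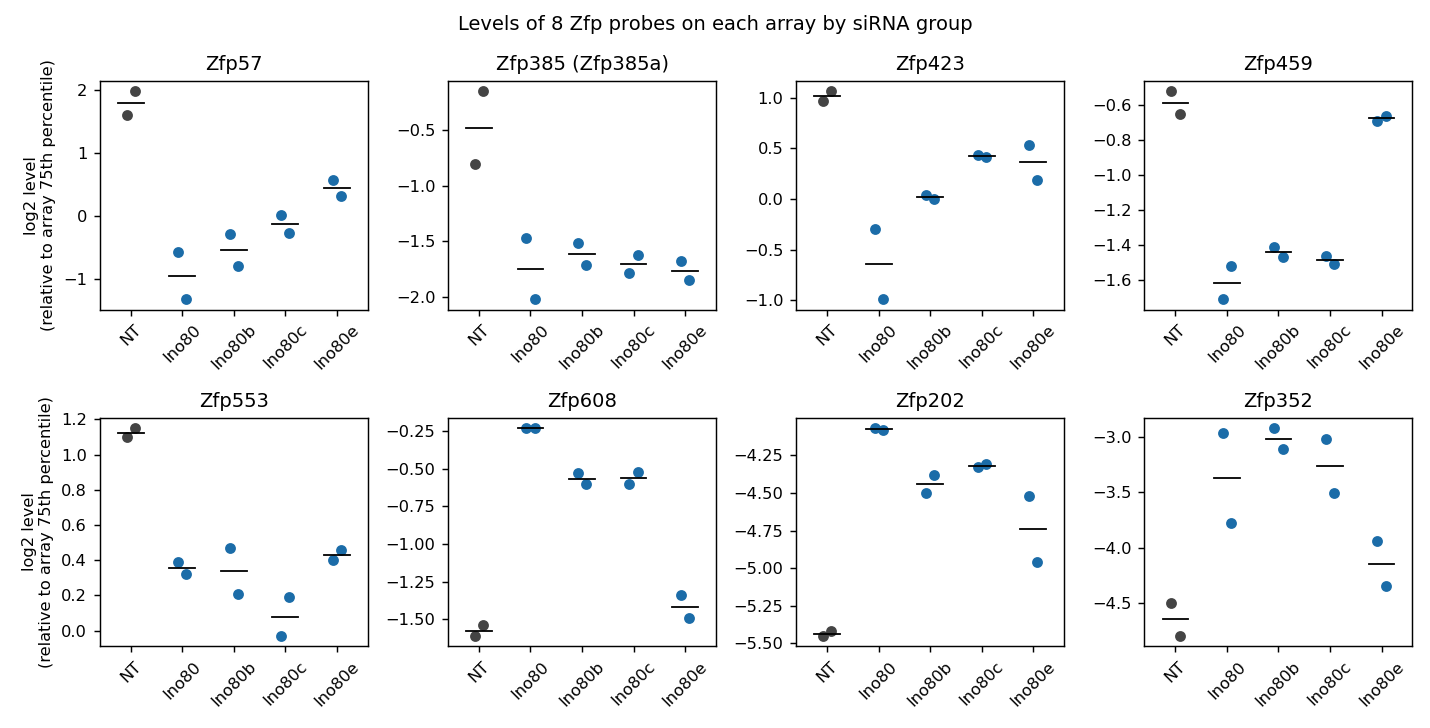
Log2 level relative to the array's 75th percentile (y) of 8 Zfp probes on each array, by siRNA group (x); points are arrays and bars are group means. Zfp57, Zfp385, Zfp423 and Zfp553 were lower on all 8 knockdown arrays than on both NT arrays, Zfp202 and Zfp352 were higher on all 8, and for Zfp459 and Zfp608 the Ino80e arrays lay close to NT.

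Of the 11 genes on that list, 3 had member probes (5 probes), and in the mean of the 4 knockdowns 2 probes fell and 0 rose, while 6.72% of all probes tested fell and 10.5% rose. Beside Zfp57 this was Zfp445, another guardian of imprinted methylation, whose most 5′ probe fell by 0.87 on the log2 scale (SE 0.21, adjusted p = 0.0328), or -0.52 with normexp. The other Zfp445 probes had differences of -0.64 and -0.51 and did not pass (adjusted p = 0.104 and 0.131). On the most 5′ probe the NT arrays were at -2.12 and -2.26 and the knockdown arrays between -3.58 and -2.59, with no overlap. Zfp69 had a difference of 0.43 that was not called.

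The corepressors these proteins work with were detected throughout. Of 32 listed genes 31 were tested. In the mean of the 4 knockdowns 3 rose and 3 fell, while 10.5% of all probes tested rose and 6.72% fell. Trim28, the scaffold that KRAB domains bind, fell by 0.63 on the log2 scale (SE 0.14, limma adjusted p = 0.0265), with levels of 7.09 and 7.26 on the NT arrays and 6.12 to 6.75 on the knockdown arrays. Setdb1, the H3K9 methyltransferase it recruits, fell by 0.68 (adjusted p = 0.0302), and Hdac2, a histone deacetylase, by 0.50 (adjusted p = 0.033). Pphln1, a subunit of the HUSH silencing complex, rose by 0.92 (adjusted p = 0.0134), Dnmt3b, a de novo DNA methyltransferase, by 0.51 (adjusted p = 0.0188), and Chd3, a remodelling ATPase, by 0.90 (adjusted p = 0.0237). The median of the 31 was 0.09, against 0.131 for all probes tested.

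Genes with roles in embryonic stem cells were measured by 20 probes of 12 genes, and in the mean of the 4 knockdowns 1 rose and 3 fell, against 10.5% and 6.72% of all probes tested. Both probes of Zfp532 fell, by 0.75 and 0.46 on the log2 scale (adjusted p = 0.0259 and 0.0485), and Zfp687 rose by 0.40 (adjusted p = 0.0446); the proteins are known as partners in a complex with Zfp592. Neither Zfp592 probe was called, at 0.05 and -0.49. Zfp143, an activator that binds many promoters, fell on its 5′ probe by 0.59 (adjusted p = 0.0352), while its 3′ probe was at -0.09. With Ino80 siRNA Zfp296 fell on 1 of 2 probes by 0.84 (adjusted p = 0.0433), from 3.69 and 3.99 on the NT arrays to 2.86 and 3.14.

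The remaining genes on that list were not called in the mean. Zfp281, a repressor linked to Nanog, had a difference of 0.06 ± 0.12 SE, and Zfp206 (Zscan10), a pluripotency factor, had -0.38 ± 0.17 SE. Zfp217, Zfp219, Zfp462, Zfp131 and Zfp644 had differences between -0.40 and 0.49. The median over the 20 probes was -0.14.

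RNA, ubiquitin, SUMO and spindle genes were measured by 24 probes of 10 genes, of which 4 rose and 1 fell in the mean of the 4 knockdowns, against 10.5% and 6.72% of all probes tested. Zfp326, part of the DBIRD complex that couples transcription and splicing, rose on both probes, by 0.55 and 0.58 on the log2 scale (adjusted p = 0.022 and 0.0222). On the first of these the NT arrays were at 0.82 and 0.62, Ino80 at 1.26 and 1.24, Ino80b at 1.5 and 1.67, Ino80c at 1.27 and 1.16, and Ino80e at 1.07 and 0.97, with no overlap with NT. Zfp451, a SUMO ligase, rose on 1 of 4 probes by 0.53 (adjusted p = 0.024), and Zfp330 on 1 of 2 by 0.50 (adjusted p = 0.0383). Zfp106, an RNA-binding protein, fell on 1 of 4 probes by 0.58 (adjusted p = 0.0472). Zfp207, a spindle protein, was among the brightest and had differences of -0.01 and -0.09.

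Developmental regulators were measured by 21 probes of 11 genes, of which 1 rose and 4 fell in the mean of the 4 knockdowns; of all probes tested 10.5% and 6.72% did. Zfp423, a regulator of neural and fat cell differentiation, fell on both probes by 0.98 and 0.96 (adjusted p = 0.0201 and 0.0397). On the first probe the levels were 0.97 and 1.06 with NT, -0.30 and -0.99 with Ino80, 0.04 and -0.00 with Ino80b, 0.43 and 0.41 with Ino80c, and 0.53 and 0.19 with Ino80e. All 8 knockdown arrays were below NT, and Ino80 was lowest. With Ino80 siRNA alone the fall was 3.16-fold on this probe (log2 -1.66 ± 0.23 SE, adjusted p = 0.0089) and 3.22-fold on the other (adjusted p = 0.0193).

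Zfp608 rose with Ino80, Ino80b and Ino80c siRNA. Its called probe (chr18:55269672-55269722, mm7, minus strand) was at -1.61 and -1.54 with NT, -0.23 and -0.23 with Ino80, -0.53 and -0.60 with Ino80b, -0.60 and -0.52 with Ino80c, and -1.34 and -1.49 with Ino80e. The rises were 2.53-fold (adjusted p = 0.00297), 2.01-fold (adjusted p = 0.0152) and 2.01-fold (adjusted p = 0.0196), and Ino80e was 1.11-fold above NT (adjusted p = 0.432). In the authors' deposited table the log2 difference with Ino80c was 0.65 instead of 1.01. The second Zfp608 probe, 5′ of it, had 0.69, 0.24, 0.33 and -0.40 in the same order and was not called. Zfp704 and Zfp384 each fell on 1 probe, by 0.51 and 0.81 (adjusted p = 0.0387 and 0.0482). Zfp521 had a difference of 1.02 ± 0.31 SE that did not pass (adjusted p = 0.0634), with all 8 knockdown arrays above NT.

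Outside these lists, the called probes with the largest rises in the mean of the 4 knockdowns were of Zfp352 and Zfp202, both dim. A Zfp558 probe had a larger difference, 1.34, that did not pass (adjusted p = 0.0666). Zfp352 is a marker of the 2-cell embryo and of 2-cell-like stem cells. It was at -4.50 and -4.80 with NT, -2.96 and -3.78 with Ino80, -2.92 and -3.11 with Ino80b, -3.02 and -3.51 with Ino80c, and -3.94 and -4.35 with Ino80e, so all 8 knockdown arrays were above NT. The rise was 3.1-fold with Ino80b (adjusted p = 0.0352) and 2.43-fold with Ino80 (adjusted p = 0.0411), while Ino80c was just outside the threshold (2.62-fold, adjusted p = 0.0507). The 4 other markers of 2-cell-like cells, Zscan4c, Usp17la, Tcstv1 and Tcstv3, rose in the mean of the 4 knockdowns too, by 1.66 to 2.25 on the log2 scale. Of all probes tested 10.5% rose there. The mean level of the 5 genes was -2.46 and -2.74 on the NT arrays and between -1.59 and -0.10 on the knockdown arrays. More such cells and more RNA per cell cannot be told apart in bulk RNA.

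Zfp202 (chr9:40142780-40142839, mm7, plus strand) was at -5.45 and -5.42 with NT, -4.07 and -4.08 with Ino80, -4.50 and -4.38 with Ino80b, -4.33 and -4.31 with Ino80c, and -4.52 and -4.96 with Ino80e. It rose 2.57-fold with Ino80 (adjusted p = 0.00554), 2.00-fold with Ino80b (adjusted p = 0.0247) and 2.17-fold with Ino80c (adjusted p = 0.0276). Its NT level was near the lower limit of the members, and the size depended on the background treatment: in the mean of the 4 knockdowns the log2 difference of 1.04 was 0.47 with normexp and 0.36 in the authors' deposited table, and that of Zfp352 was 0.58 and 0.51 against 1.20. With Ino80b siRNA the authors' deposited table gave 0.34 for Zfp202, which did not pass (adjusted p = 0.0524).

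The 250 bases before the RefSeq start of Zfp352 hold a short repeat, shown because the gene stands out among the rises; capitals mark GACAACACAC, the most repeated 10-base word of the window, which occurs 9 times. Both strands were searched, and the word was chosen after the window was seen. Of 32851 such windows, 14 (0.0426%) hold it, and 1 holds it 3 or more times. The sequence is from RefSeq's GRCm38.p6:
Zfp352 (chr4:90218570-90218819, GRCm38.p6, plus strand): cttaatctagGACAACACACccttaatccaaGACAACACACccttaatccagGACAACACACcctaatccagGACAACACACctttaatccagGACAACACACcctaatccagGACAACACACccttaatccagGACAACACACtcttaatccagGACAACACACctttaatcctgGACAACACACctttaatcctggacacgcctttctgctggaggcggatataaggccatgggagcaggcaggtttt

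RefSeq promoter windows were matched for 150 member genes (203 windows). The YY1 core GCCATNTT was in 5.42% of them and in 3.91% of all windows, the octamer ATGCAAAT in 2.96% and 1.60%, and the estrogen-related receptor element TNAAGGTCA in 0.493% and 1.14%. Member windows held a median of 13 CpG dinucleotides, against 6 in all windows.

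Other Zfp probes with large rises in the mean of the 4 knockdowns were Zfp251 (0.91), Zfp287 (0.76), Zfp612 (0.73), Zfp639 (0.69) and Zfp637 (0.67), with limma adjusted p-values between 0.0155 and 0.0411. Without NT replicate 2 all of these differences were smaller, at 0.58, 0.48, 0.59, 0.56 and 0.41 in the same order. Zfp318, Zfp113, Zfp558 and Zfp523 rose with Ino80 siRNA by 0.92 to 1.04 (adjusted p 0.0143 to 0.0318). Their size depended on the background treatment except for Zfp523. With normexp Zfp318 was at 0.33 (adjusted p = 0.0578), Zfp113 at 0.36 (adjusted p = 0.0677) and Zfp558 at 0.26 (adjusted p = 0.181), none of them called. Zfp612 rose with Ino80, Ino80b and Ino80c (0.70, 0.90 and 0.92). Zfp606 rose with Ino80 and Ino80b (0.76 and 0.66), Zfp579 with Ino80b (0.62), and Zfp386 and Zfp647 with Ino80 (0.71 and 0.53) and Ino80c (0.75 and 0.56). In the authors' deposited table Zfp606 was at 0.37 with Ino80b, and Zfp386 and Zfp647 were at 0.34 and 0.31 with Ino80c, where neither passed (adjusted p = 0.0806 and 0.0858).

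**Figure D3:**
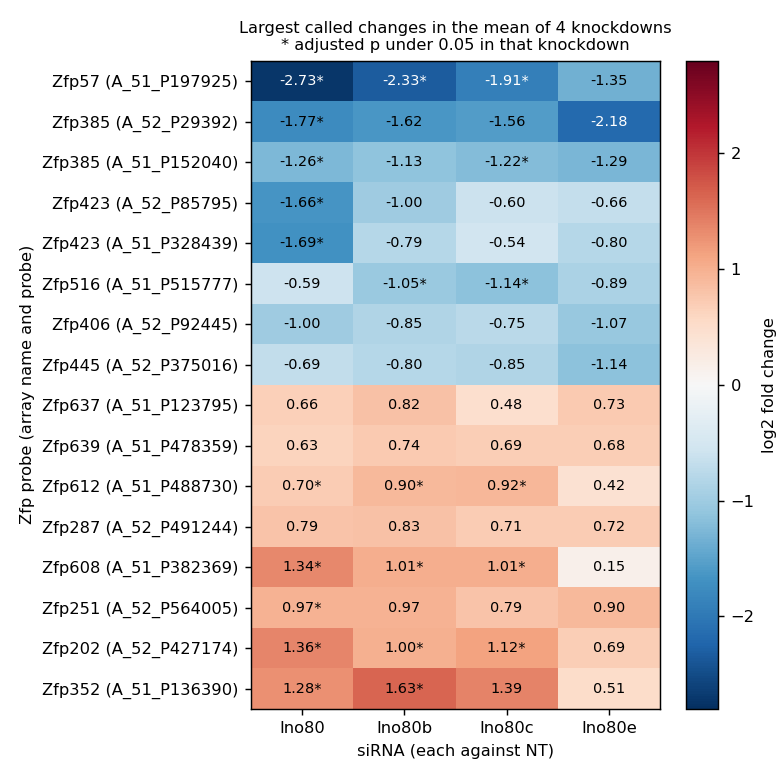
Log2 fold change over NT in each knockdown (columns) for the 8 largest rises and the 8 largest falls called in the mean of the 4 knockdowns (rows, array gene name and probe); colour and printed number give the value, and an asterisk marks adjusted p under 0.05 in that knockdown. Zfp57 lies between -2.73 and -1.35 across the knockdowns, and Zfp608 is at 0.15 with Ino80e and 1.01 or above in the others.

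Zfp459 was near its NT level on the Ino80e arrays. It was at -0.52 and -0.65 with NT, -1.71 and -1.52 with Ino80, -1.41 and -1.47 with Ino80b, -1.46 and -1.51 with Ino80c, and -0.69 and -0.66 with Ino80e. It fell 2.05-fold, 1.82-fold and 1.87-fold in the first 3 (adjusted p = 0.00626, 0.0213 and 0.026) and was 1.07-fold below NT with Ino80e (adjusted p = 0.659). Ino80c against Ino80e on the same slide gave -0.81, which did not pass (adjusted p = 0.0798). Zfp750, a regulator of epidermal differentiation, fell with Ino80 by 1.51 (adjusted p = 0.0151; -0.97 with normexp), and its difference with Ino80c was -0.03. Zfp406 (Zfat), a regulator of blood cell development, fell in the mean of the 4 knockdowns (-0.92, adjusted p = 0.0357), but by less with normexp (-0.34) and in the authors' deposited table (-0.58). Zfp28 fell with Ino80 (-0.86), Zfp236 with Ino80b (-0.72), and Zfp516, Zfp553 and Zfp710 with both Ino80b and Ino80c (-0.78 to -1.14). Some other probes differed. The other Zfp236 probe was at 0.26 with Ino80b, and another Zfp553 probe was at 0.34 and 0.74 with Ino80b and Ino80c. A further Zfp553 probe was lower, at -0.43 and -0.54 with Ino80b and Ino80c. In the mean of the 4 knockdowns it was called lower (-0.44, limma adjusted p = 0.0452). The Zfp516 values were -0.45 and -0.53 with normexp.

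Within slides, 0 member probes were called between Ino80 and Ino80b (limma; 0.0304% of all probes tested were called) and 0 between Ino80c and Ino80e (0.0169%). At an unadjusted p under 0.05 there were 18 and 25 members. The replicate block, trended and robust variance, normexp and the authors' deposited table each gave 0 for the first pair and 2 for the second. Of all probes these settings called 0.125%, 0.179%, 0.189% and 0.0777% in the first pair. In the second pair they called 1.05%, 0.497%, 0.568% and 0.497%. The calls of member probes are thus all differences from the 2 NT arrays, apart from 5 differences between knockdowns on separate slides: 1 between Ino80 and Ino80c (0.727% of all probes called), 3 between Ino80 and Ino80e (2.84%) and 1 between Ino80b and Ino80e (0.493%). Between Ino80b and Ino80c 0 were called by limma (0.0169% of all probes, and 13 members at an unadjusted p under 0.05).

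Probes of the same gene often disagreed. Of 103 genes with 2 or more member probes, 53 had the same sign on every probe in the mean of the 4 knockdowns, and the largest minus the smallest log2 difference had a median of 0.40. In 4 genes every probe was called in the same direction, Zfp278 (Patz1), Zfp326, Zfp423 and Zfp532. In 2 genes probes were called in opposite directions. Zfp7 rose on its most 3′ probe by 0.44 (adjusted p = 0.040) and fell by 0.53 on a probe 1967 bases upstream (adjusted p = 0.0485). Other Zfp7 probes were not called, at -0.39 for 907 bases upstream, 0.24 for 3606 and 0.27 for 4067. Zfp715 rose on its most 3′ probe by 0.44 (adjusted p = 0.0447) and fell by 0.77 on one 2518 bases upstream (adjusted p = 0.0217). With Ino80b the fall on the latter, -0.86, was -0.37 with normexp and did not pass (adjusted p = 0.0611).

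Zfp385 (Zfp385a, an RNA- and DNA-binding protein of the p53 pathway) differed along its length. From 5′ to 3′ its probes had log2 differences of -1.78 (adjusted p = 0.0197), -1.23 (adjusted p = 0.0172) and -0.21 (adjusted p = 0.171). The first of these was -0.95 with normexp. The middle probe was at -0.80 and -0.15 with NT, -1.47 and -2.02 with Ino80, -1.51 and -1.71 with Ino80b, -1.78 and -1.62 with Ino80c, and -1.68 and -1.85 with Ino80e. Without NT replicate 2 its difference was -0.90 (adjusted p = 0.115). Zfp263 had -0.70 and -0.62 on its 5′ probes, both called, and 0.18 on its most 3′ probe. Zfp710 had -0.86 on its 5′ probe, called, and -0.17 on its 3′ probe, which was not. Zfp516 was called on its most 5′ and most 3′ probes (-0.92 and -0.82) and was at -0.06 between them.

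**Figure D4:**
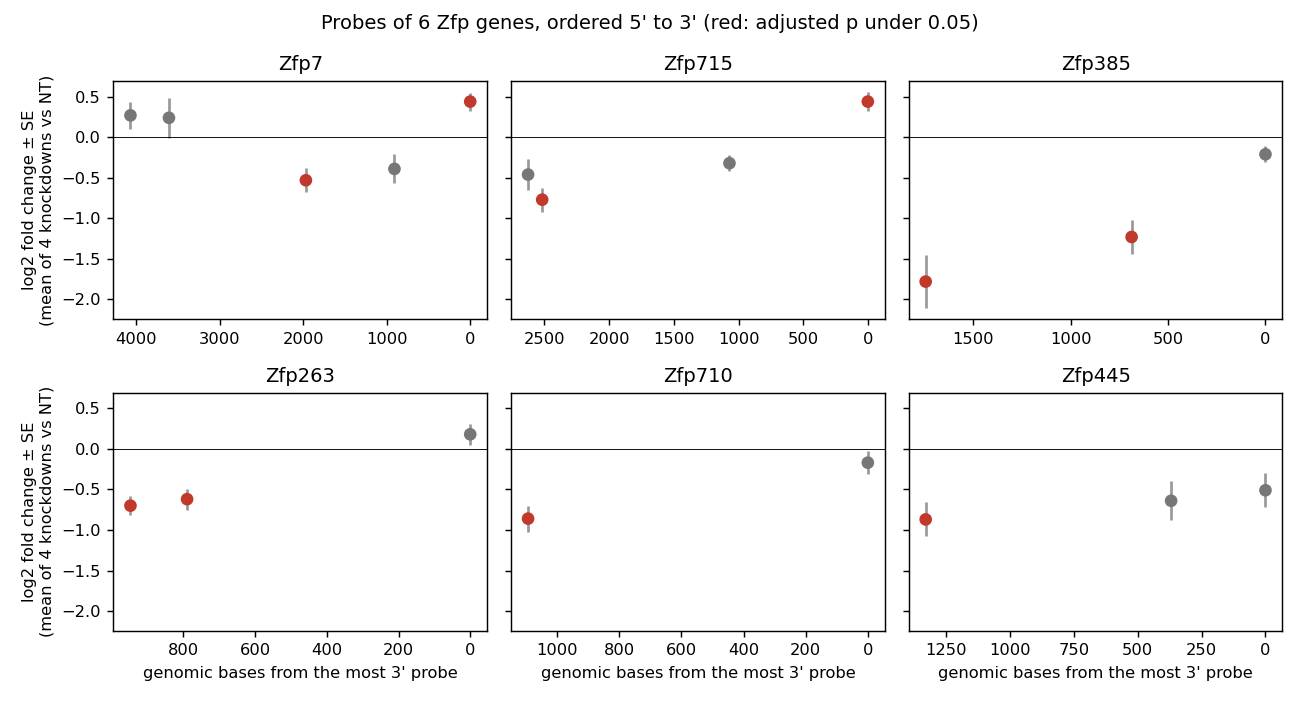
Log2 fold change of the mean of 4 knockdowns over NT (y, bars are SE) for each probe of 6 Zfp genes against its genomic distance from the most 3′ member probe (x, 5′ at left); red marks adjusted p under 0.05. In Zfp715, Zfp385, Zfp263 and Zfp710 the most 3′ probe has the smallest fall or a rise, and in Zfp445 all 3 probes are below 0.

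The position of a probe along the transcript moved with the NT group. For 79 Zfp genes and 4217 genes in all, the level of the most 5′ probe minus that of the most 3′ probe was taken on each array and the gene's own mean subtracted (probes 200 to 20000 bases apart on 1 strand; a measure added after the data were seen). Over the Zfp genes the median was 0.17 and 0.24 on the NT arrays and between -0.11 and 0.04 on the 8 knockdown arrays. Over all genes it was 0.08 and 0.19 on the NT arrays and between -0.08 and 0.05 on the others. The NT arrays thus had the most signal at the 5′ probes, in the Zfp genes and in all genes.

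The calls followed the same position. In the mean of the 4 knockdowns 3 of the 79 most 5′ Zfp probes were called higher and 13 lower, and of the 79 most 3′ probes 8 were higher and 4 lower. Over all genes the most 5′ probes were higher in 6.50% and lower in 11.6%, and the most 3′ probes were higher in 12.8% and lower in 6.19%. The 5′ probe had the lower difference in 54 of the 79 Zfp genes (68.4%) and in 65.6% of all genes. The part of probe position in the falls listed here, those of Zfp385, Zfp263, Zfp710, Zfp445 and Zfp143 among them, was not tested.

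**Figure D5:**
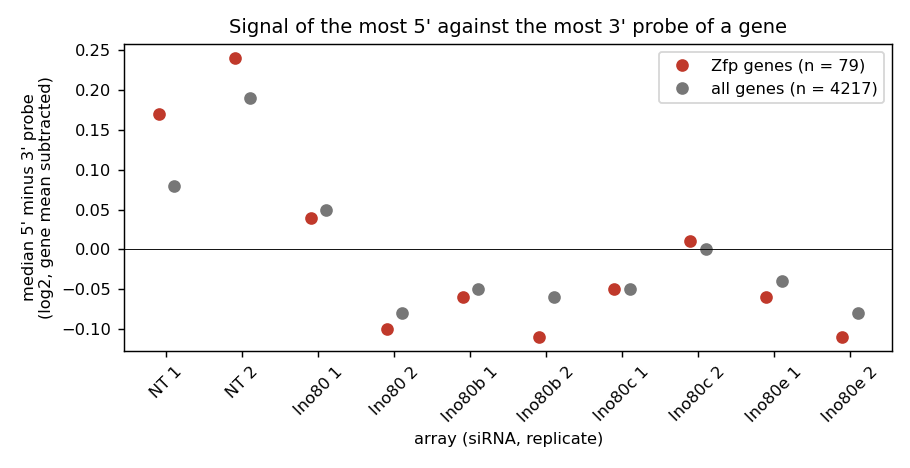
Median over genes of the log2 level at the most 5′ probe minus that at the most 3′ probe, with each gene's mean subtracted (y), on each array (x), for 79 Zfp genes (red) and 4217 genes in all (grey). The NT arrays, at 0.17 and 0.24 for the Zfp genes, lie above all 8 knockdown arrays.

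Markers of other cell types moved with the groups as well. Each marker, like each corepressor above, was measured by its tested probe with the highest mean level. The mean level of 8 primitive endoderm genes was -1.44 and -1.66 on the NT arrays, -3.58 and -3.67 with Ino80, -2.59 and -2.66 with Ino80b, -1.98 and -1.84 with Ino80c, and -1.42 and -1.13 with Ino80e. With Ino80 siRNA 8 of 8 fell, against 5.11% of all probes tested, and with Ino80b 6 of 8, against 2.76%. The mean level of 11 fibroblast feeder genes was -2.89 and -2.99 with NT and -2.85 to -2.09 in the knockdowns. Of the 11, 5 were higher with Ino80 siRNA, against 6.44% of all probes tested. The mean level of 5 neuroectoderm genes was -1.41 and -1.39 with NT and -1.36 to -0.93 in the knockdowns, and Nes rose with Ino80 siRNA. That of the 11 embryonic stem cell markers was 4.84 and 5.08 with NT and 4.34 to 4.80 in the knockdowns. Of these, 5 fell with Ino80 siRNA, 3 with Ino80b and 2 with Ino80c, against 5.11%, 2.76% and 1.43% of all probes tested. The part of these cell types in the Zfp differences was not tested.

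Chromosome 7 held 83 member probes (54 genes), 22.5% of the members against 7.39% of all probes above background on all arrays. Of these 83, 6 were called higher and 8 lower in the mean of the 4 knockdowns, and their median log2 difference was -0.01. Chromosome 17 followed with 32 probes (3 higher, 1 lower) and chromosome 9 with 30 (3 higher, 4 lower). Chromosome 18 had 24 probes (11 genes), 1 higher and 6 lower. Of all probes tested 10.5% were higher and 6.72% lower in the mean. The shares called among all probes of a single chromosome were not computed.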

How the data were processed

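Signals come from the green channel, read by Feature Extraction 9.5.3.1 per the file headers, whereas the labels name Cy5. The deposited scanner files give each spot's intensity as a processed signal, background-subtracted and detrended by the authors' scanner software and not scaled between arrays. The value table the authors deposited is on a log2 scale; each column equalled the log2 mean signal of its array plus 1 constant, and its medians ran from 6.83 to 6.94. The origin of these constants stays unknown.

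Control spots and outlier flags were left out (31 probes lost), spots of a probe were averaged, and each array's 75th percentile (664 to 930 intensity units) was subtracted from log2. A probe was tested if some group had it well above background on both its arrays (29587 probes). Group means of all 10 arrays were compared with limma 3.58.1 in R 4.3.3 (lmFit, eBayes), with Benjamini-Hochberg adjustment and calls at adjusted p under 0.05. The script was tested on simulated data. With 2 replicates per group, p-values measure the spread between these samples.

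Named are, per comparison, up to 8 called rises and 8 called falls, fixed lists by role, and genes called in opposite directions. Members and lists were chosen with earlier results of these data known. Strand was read from the orientation of probe coordinates (mm7); it matched RefSeq for 98.3% of 23517 probes. Exon and UTR annotation for mm7 was not used here.

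Alternatives were normexp, quantile normalization, other filters, the authors' table, 1 probe per gene, trended and robust variance, array weights, a replicate block, only the arrays compared, and leaving out each array.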

Additional observations from a re-analysis of the deposited data

Results flagged for a closer look

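Between knockdowns on separate slides, compared after the data were seen, 5 differences of member probes passed limma's adjusted p under 0.05. Slide and siRNA cannot be told apart in any of them.

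Zfp608 was higher with Ino80 than with Ino80e by 1.19 on the log2 scale (SE 0.12, adjusted p = 0.00737; 2.84% of all probes were called in that comparison) and higher with Ino80b than with Ino80e by 0.85 (adjusted p = 0.0405; 0.493% called). In both, every array of the first group lay above both Ino80e arrays. Zfp459 was lower with Ino80 than with Ino80e, at -0.94 (SE 0.13, adjusted p = 0.0158).

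A Zfp87 probe was lower with Ino80 than with Ino80c, at -0.83 (adjusted p = 0.0399; 0.727% called), and than with Ino80e, at -1.10 (adjusted p = 0.00931). Its levels were -3.33 and -3.31 with NT, -3.77 and -3.70 with Ino80, -3.17 and -3.08 with Ino80b, -2.94 and -2.88 with Ino80c, and -2.72 and -2.55 with Ino80e. It was called in none of the 4 comparisons against NT, and the other Zfp87 probe did not show the pattern (0.47 and 0.44 with NT, 0.20 to 0.38 in the knockdowns). Between Ino80b and Ino80c 0 members were called by limma (13 at unadjusted p under 0.05).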

How the results depend on the processing

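Counts of called members are given in the order Ino80, Ino80b, Ino80c, Ino80e and mean of the 4 knockdowns; differences below 1.5-fold from the main counts (41, 17, 13, 0 and 69) are left out unless named. Normexp gave 75, 59, 55, 69 and 115, where 18%, 14.9%, 18.9%, 22.6% and 31.1% of all probes were called. The authors' deposited table gave 76, 53, 56 and 46 in the 4 knockdowns, of which 36, 12, 5 and 1 were higher (17.3%, 12.6%, 12.6% and 9.54% of all probes called). Trended and robust variance gave 73, 53, 38 and 28 (17.2%, 13.3%, 11.5% and 8.37%). Testing only probes above background on all arrays gave 64, 44, 29 and 3 (18.2%, 12.3%, 10.9% and 1.95%), and no filter gave 11, 2, 1 and, in the mean, 24 (3.86%, 0.559%, 0.304% and 4.94%). Array weights gave 6, 5, 2 and, in the mean, 2 (2.65%, 2.23%, 0.507% and 0.544%). Quantile normalization gave 27 for Ino80b and 22 for Ino80c (7.12% and 5.06%). With 1 probe per gene there were 25 for Ino80, 10 for Ino80b and 41 in the mean (12.4%, 6.44% and 18.2%). With only the arrays compared there were 0 in each of the first 3 (0.0% of all probes). Ino80c against Ino80e had 2 with array weights, normexp, the authors' table and trended variance (0.889%, 0.568%, 0.497% and 0.497% of all probes). It had 1 with probes above background on all arrays (0.347%).

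With the replicate number as a block the counts were 84, 61, 48, 24 and 115 (22.4%, 16.3%, 15.7%, 7.97% and 29.6% of all probes). Ino80c against Ino80e had 2 (1.05%). The deviations of same-numbered arrays correlated at 0.01 to 0.34 between groups, not above 0.1 in every pair of groups, and no label ties the numbers to a shared source, so they were not taken to pair the samples.

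Leaving out 1 array gave 6 to 54 for Ino80, 0 to 49 for Ino80b, 0 to 32 for Ino80c, 0 to 4 for Ino80e and 0 to 81 for the mean. The share of all probes called moved as well. Over 1183 recomputed values of the 61 named calls, 733 stayed past the threshold, 450 did not, and 0 changed direction.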
